A study of Mus musculus with 48 samples.

Results

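The 10 genes Kdr, Flt1, Tek, Tie1, Aplnr, Eng, Cdh5, Esam, Egfl7 and Pecam1, which mark the endothelial cells that line blood vessels, were followed through 48 RNA-seq libraries of sorted mouse leukocytes. They were taken by symbol from a list that used no measured value, as 10 of 34932 annotated genes, and each symbol matched 1 gene. The libraries came from B16F10 tumors, a transplanted mouse melanoma line grown under the skin, and from the tumor-draining inguinal lymph nodes (TDLNs) of C57BL/6J mice. In each tissue CD4+ T cells, CD8+ T cells and the remaining CD45+ CD4- CD8- cells had been sorted alive from wild-type (WT) and Yap-cKO mice, which gave 12 groups of 4 libraries; the T cells from tumor are called TILs. The Yap-cKO mice carried Yap-loxP/loxP, LSL-EYFP and CD4-Cre, so that Yap is deleted and a yellow fluorescent protein switched on in cells that have expressed Cre from the Cd4 promoter, and the WT mice were littermates. All mice were young adults and bore B16F10 tumors, and Cre was not directed to endothelial cells or tumor cells. Whether cells of the CD45+ CD4- CD8- gate had expressed Cre was not tested. None of the 3 gates selects endothelial cells, which lack CD4, CD8 and the pan-leukocyte protein CD45.

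Endothelial cells are held together at their junctions by cadherin-5 (Cdh5), by the adhesion molecule Esam and by Pecam1, which is also present on T cells, other leukocytes and platelets. Growth factors of the VEGF family act through the receptor tyrosine kinases Kdr and Flt1, and angiopoietins act through Tek together with its relative Tie1; both systems drive the sprouting and the maturation of vessels, including those of tumors. Aplnr is the receptor for apelin, Eng (endoglin) is a co-receptor for ligands of the TGF-beta family such as BMP9, and Egfl7 is a protein that endothelial cells secrete.

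The depth was 12656302 to 24213689 estimated counts on genes per library. Levels are given as CPM, each count divided by this total and scaled alike in all libraries, so that 3 counts stand for 0.124 to 0.237 CPM. The gates carried their defining transcripts. In CD4+ TILs the mean of Cd4 was 387 CPM for WT and 806 CPM for Yap-cKO, where CD8+ TILs had 0.805 and 4.04 CPM, the mean of Cd8a in CD8+ TILs was 476 and 843 CPM, and Ptprc, which encodes CD45, averaged at least 364.5 CPM in every group. Yap1, the targeted gene, lay between 16.8 and 30.2 CPM in WT CD4+ TILs and between 1.80 and 5.25 CPM in Yap-cKO CD4+ TILs, and between 15.6 and 33.0 CPM against 2.59 and 7.44 CPM in CD8+ TILs. It was also lower in the CD45+ CD4- CD8- cells of Yap-cKO tumors, at 1.10 to 1.78 CPM against 2.41 to 4.47 CPM, although Cre was not directed to them. Yap1 overlapped between genotypes in TDLN T cells, with means of 1.69 and 2.00 CPM in CD4+ and 2.19 and 2.34 CPM in CD8+ cells. The label was thus not checked by Yap1 there. In every gate the gene-level count also covers exons outside the deleted part. How much Yap1 in the TIL libraries came from cells other than T cells was not tested. Its difference there therefore does not check the label either. Y-linked transcripts summed to 47.8 to 444.6 CPM in WT replicates 1 to 3 of the 6 WT groups, to 2.11 to 9.49 CPM in WT replicate 4 and to 1.83 to 22.3 CPM in the Yap-cKO libraries. WT replicates 1 to 3 therefore differ from the Yap-cKO libraries in these transcripts as well as in genotype. Sex and genotype may thus be partly confounded. Values for WT replicate 4 alone are given with the genotype results. The labels do not say which libraries came from separate mice, so the p-values below measure the spread between these libraries.

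Where the genes lie is given on GRCm38 (mm10). On chromosome 2 are Egfl7 (26580014-26593120, plus strand), Eng (32646595-32682669, plus strand) and Aplnr (85136225-85139923, plus strand). Chromosome 4 carries Tek (94739289-94874976, plus strand) and Tie1 (118471191-118490061, minus strand), and chromosome 5 carries Kdr (75932827-75978458, minus strand) and Flt1 (147561604-147726011, minus strand). Cdh5 is on chromosome 8 (104101625-104144511, plus strand), Esam on chromosome 9 (37528078-37538319, plus strand) and Pecam1 on chromosome 11 (106654217-106750628, minus strand). Eng shares bases with Fpgs and Egfl7 with Agpat2, each on the opposite strand, and the counting used no strand, so that reads in those stretches cannot be told apart.

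The letters just upstream of the gene starts are shown for the 4 vessel receptor kinases. RefSeq promoter sequence (GRCm38.p6) was at hand for 6 of the 10 genes, as the 250 bases before each start. The windows are chr5:75978456-75978705 (minus strand) for Kdr, chr5:147726012-147726261 (minus strand) for Flt1, chr4:94739039-94739288 (plus strand) for Tek and chr4:118489850-118490099 (minus strand) for Tie1. They read 5′ to 3′ along the gene, and capitals mark AGGAAG or its reverse complement CTTCCT, a word that ETS factors of endothelial cells can bind.
Kdr: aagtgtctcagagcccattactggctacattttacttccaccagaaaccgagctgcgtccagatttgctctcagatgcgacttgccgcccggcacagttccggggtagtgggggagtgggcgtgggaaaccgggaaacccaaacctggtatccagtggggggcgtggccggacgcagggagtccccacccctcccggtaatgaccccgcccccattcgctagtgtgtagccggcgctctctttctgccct
Flt1: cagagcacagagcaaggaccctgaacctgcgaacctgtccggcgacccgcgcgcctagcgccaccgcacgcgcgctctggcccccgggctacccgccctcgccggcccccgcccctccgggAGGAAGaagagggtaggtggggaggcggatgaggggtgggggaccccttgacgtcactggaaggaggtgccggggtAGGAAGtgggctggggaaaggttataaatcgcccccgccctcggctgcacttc
Tek: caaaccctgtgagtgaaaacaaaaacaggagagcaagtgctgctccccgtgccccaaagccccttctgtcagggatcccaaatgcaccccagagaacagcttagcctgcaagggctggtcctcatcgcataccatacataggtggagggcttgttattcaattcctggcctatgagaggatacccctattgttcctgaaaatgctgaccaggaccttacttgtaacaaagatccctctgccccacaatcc
Tie1: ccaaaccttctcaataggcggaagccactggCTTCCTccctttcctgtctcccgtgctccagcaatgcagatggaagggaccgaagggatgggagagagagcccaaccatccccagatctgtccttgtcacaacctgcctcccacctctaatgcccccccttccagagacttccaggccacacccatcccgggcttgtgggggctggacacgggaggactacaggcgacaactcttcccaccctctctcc
Flt1 held the word at 2 places and Tie1 at 1, and it was not found in the windows of Kdr and Tek. Counting Eng and the 3 starts of Egfl7 as well, 5 of 8 windows of these genes held it, against 29.5% of all 32851 promoter windows of the same length. CATTCC or GGAATG, the word to which the TEAD partners of Yap can bind, was in 0 of the 8 windows and in 12.6% of all windows. By gene, 4 of the 6 held AGGAAG or CTTCCT, and 3 of the 8 windows are of Egfl7 alone. The longer CAGGAAG was in 2 windows, both of Egfl7, and in 10.8% of all windows. CCGGAAG, another ETS-type word, was in 0 of the 8 and in 6.9% of all windows. The GATA-type AGATAA and the forkhead-type TGTTTAC were in 0 of the 8, and the GATA-type core GATAA in 1. Whether any word was in excess was not tested. These are descriptions of letters in short windows, in which AGGAAG and the other words were not tested for binding.

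In the tumors of WT mice the T-cell libraries carried these transcripts at high levels, and in TDLNs they were close to 0 apart from Pecam1 and Eng. Summed over the 9 genes without Pecam1, the level was 371, 469, 418 and 156 CPM in the 4 WT CD4+ TIL libraries and 371, 2321, 471 and 128 CPM in WT CD8+ TILs. The same sum in WT TDLNs was 1.94 to 4.40 CPM in CD4+ cells, 25.4 to 28.4 CPM in CD8+ cells, nearly all of it Eng, and 7.46 to 11.4 CPM in CD45+ CD4- CD8- cells. WT CD8+ TIL replicate 2 was the highest of its group for all 10 genes, and WT replicate 4 was the lowest for 8 of 10 in CD4+ and for 9 of 10 in CD8+ TILs. In sorted bulk libraries a larger number of cells of a type and more RNA per cell cannot be told apart.

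**Figure D1:**
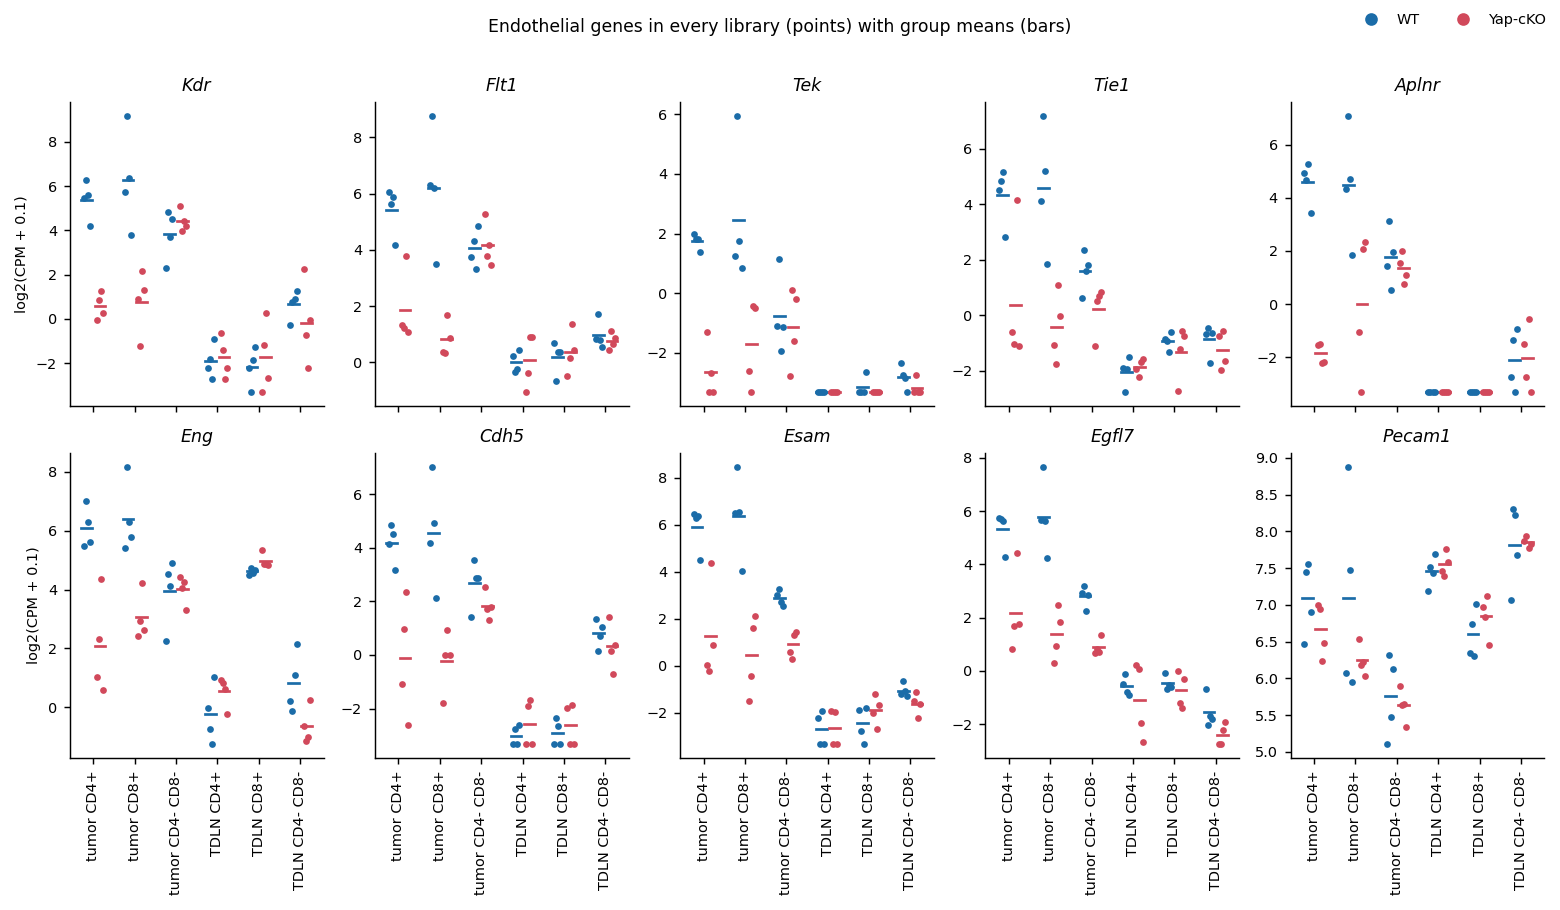
Level of each of the 10 genes in every library, as log2(CPM + 0.1) on the y axis, for the 3 gates in tumor and in TDLN on the x axis; points are libraries (blue WT, red Yap-cKO) and bars the mean of the plotted values. Kdr in WT CD4+ TILs ran from 18.2 to 76.2 CPM and in Yap-cKO CD4+ TILs from 0.869 to 2.31 CPM, while Pecam1 overlapped between the genotypes in every gate.

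Compared per length, in TPM, the length-scaled unit of the authors' Salmon run, the CD4+ TILs of both genotypes had Pecam1, Egfl7, Esam, Eng and Flt1 as the 5 highest means, in that order, and Tek as the lowest. In WT CD4+ TILs Pecam1 (59.8 ± 19.9 TPM, SD, n = 4) and Egfl7 (57.0 ± 20.9) led, and Tek averaged 1.28 ± 0.81. In Yap-cKO CD4+ TILs Pecam1 averaged 59.6 ± 18.7 TPM and Egfl7, next in order, 10.3 ± 10.1 TPM. The ranges of Pecam1 and Egfl7, 34.6 to 78.7 and 26.2 to 72.4 TPM, overlapped in WT CD4+ TILs, and in the Yap-cKO cells Pecam1 (34.5 to 75.1) lay above Egfl7 (4.53 to 25.4).

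To ask how Yap deletion in T cells bore on these transcripts, Yap-cKO and WT libraries were compared within each gate and tissue by the quasi-likelihood test of edgeR, adjusted by Benjamini-Hochberg. A gene was called at an adjusted p under 0.05 and a difference over 1 on the log2 scale. In CD4+ TILs, 4 of the 10 genes were called lower in Yap-cKO, where 6.66% of the 14205 genes tested were called lower, and 0 were called higher, where 1.36% were. The 4 were the VEGF receptors Kdr and Flt1, the angiopoietin receptor Tek and the apelin receptor Aplnr. All 10 passed the filter on low counts, but Cdh5, Tek, Tie1 and Aplnr passed through the WT group alone, so that their difference was built into being tested. The median log2 difference of the 10 was -3.07, beside 0.14 over all genes tested. For 7 of the 10 every WT library lay above every Yap-cKO library, as for 15.3% of all genes tested.

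Kdr, the main VEGF receptor of endothelial cells, stood at 43.3, 76.2, 48.2 and 18.2 CPM in the WT libraries in order of replicate, against 0.869, 1.73, 2.31 and 1.11 CPM in Yap-cKO CD4+ TILs. The groups were far apart, and Kdr fell by 4.74 ± 0.57 (SE) on the log2 scale (edgeR adjusted p = 0.0061). Flt1, which also binds VEGF and can hold it away from Kdr, measured 66.3, 49.0, 58.1 and 18.03 CPM in WT against 2.42, 2.24, 13.7 and 2.03 CPM in Yap-cKO libraries. Its groups did not overlap, although Yap-cKO replicate 3 came near WT replicate 4, and the difference was -2.91 ± 0.77 (edgeR adjusted p = 0.0418).

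Tek, the angiopoietin receptor, was the weakest of the 10 in WT CD4+ TILs at 3.85, 3.44, 3.43 and 2.50 CPM, with 0.31, 0, 0.0564 and 0 CPM in Yap-cKO. No Yap-cKO library reached 10 counts, and Tek fell by 4.91 ± 0.84 (edgeR adjusted p = 0.0095). Tie1, which pairs with Tek, showed 22.8, 28.8, 36.0 and 7.07 CPM in WT against 0.558, 0.385, 17.8 and 0.37 CPM in Yap-cKO. Yap-cKO replicate 3 lay inside the WT range, and Tie1 was not called (log2 difference -1.89 ± 1.20, edgeR adjusted p = 0.349).

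Aplnr, the apelin receptor, was at 30.6, 25.3, 38.4 and 10.8 CPM in WT CD4+ TILs. Its Yap-cKO values were 0.248, 0.256, 0.113 and 0.123 CPM, at or near the level of 3 counts in every library, replicate 3 included. The difference of -6.97 ± 0.57 (edgeR adjusted p = 0.00066) was the largest of the 10 in this comparison.

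Eng, the TGF-beta family co-receptor, measured 44.7, 129, 77.9 and 48.9 CPM in WT against 1.92, 4.93, 20.6 and 1.42 CPM in Yap-cKO CD4+ TILs. The groups did not overlap, and the difference of -3.04 ± 0.86 missed the threshold (edgeR adjusted p = 0.055). Cdh5 and Esam, the junction genes, had WT ranges of 8.89 to 28.8 and 22.5 to 88.5 CPM against 0.0616 to 5.02 and 0.769 to 20.4 CPM in Yap-cKO. Neither pair of ranges overlapped, and neither gene was called, with log2 differences of -3.11 ± 0.97 and -3.12 ± 1.07 (edgeR adjusted p = 0.0766 and 0.102).

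Secreted Egfl7 stood at 53.2, 51.4, 49.9 and 19.5 CPM in WT against 1.68, 3.14, 21.3 and 3.33 CPM in Yap-cKO CD4+ TILs. Yap-cKO replicate 3 lay just above WT replicate 4, and Egfl7 was not called (log2 difference -2.22 ± 0.81, edgeR adjusted p = 0.122). Pecam1, which T cells also express, measured 88.4, 174, 188 and 120 CPM in WT against 128, 124, 75.1 and 89.3 CPM in Yap-cKO. Its groups overlapped throughout, with a log2 difference of -0.32 ± 0.31 (edgeR adjusted p = 0.539).

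Yap-cKO CD4+ TIL replicate 3 was the highest of its group for 7 of the 10 genes. Without it 9 genes were called lower in CD4+ TILs. Calls over all genes in either direction rose as well, from 1139 of 14205 to 3236 of 14030. Without WT replicate 1 or 2 the count was 1 and without WT replicate 3 or 4 it was 2, with 8 genes then passing the filter. Without Yap-cKO replicate 1, 2 or 4 the count was 3. Over all genes 417, 332, 1097 and 674 were called without WT replicate 1, 2, 3 and 4. Without Yap-cKO replicate 1, 2 and 4 they were 667, 483 and 356. WT replicate 4 alone lay above all 4 Yap-cKO libraries for 7 of 10 genes, and WT replicates 1 to 3 alone for 9 of 10. Fewer WT libraries meet such a rule more easily than 4 do, and the share of all genes meeting it was not computed. Scaled to the T lineage genes, 9 were called lower, under a scaling that moved the median of all genes tested to -1.09. Under it 3430 of 14205 genes were called in either direction.

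In CD8+ TILs, 8 of the 10 genes were called lower in Yap-cKO and 0 higher, where 9.14% of 14121 genes were called lower and 3.03% higher. The exceptions were Aplnr and Pecam1. Again all 10 passed the filter, 6 of them through the WT group alone, and their median log2 difference was -5.51 beside 0.0777 over all genes. Every WT library lay above every Yap-cKO library for 8 genes, as for 14.2% of all genes.

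Kdr measured 52.5, 579, 81.1 and 13.7 CPM in WT against 1.77, 0.323, 4.42 and 2.33 CPM in Yap-cKO CD8+ TILs. Even the lowest WT library, replicate 4, lay above the highest Yap-cKO library, and Kdr fell by 6.24 ± 1.19 (edgeR adjusted p = 0.0185). Flt1 showed 78.5, 437, 72.8 and 11.2 CPM against 1.20, 1.16, 3.08 and 1.72 CPM, a difference of -6.28 ± 1.01 (edgeR adjusted p = 0.018).

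Tek stood at 2.29, 61.7, 3.29 and 1.71 CPM in WT CD8+ TILs and at 0.0633, 0, 0.64 and 0.618 CPM in Yap-cKO. Most of its WT mean came from replicate 2, and it fell by 5.55 ± 1.44 (edgeR adjusted p = 0.034). Tie1 ranged from 3.54 to 146.8 CPM in WT and from 0.194 to 2.04 CPM in Yap-cKO, a difference of -5.75 ± 1.12 (edgeR adjusted p = 0.0185). Aplnr overlapped here, with 20.0, 136, 26.3 and 3.48 CPM in WT against 0.38, 0, 4.13 and 5.01 CPM in Yap-cKO. It was not called, at -4.18 ± 1.28 (edgeR adjusted p = 0.0548), and WT replicate 4 lay below the 2 highest Yap-cKO libraries.

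Cdh5, Esam, Egfl7 and Eng were called lower in CD8+ TILs, with log2 differences of -5.47, -5.98, -4.65 and -3.54 (edgeR adjusted p = 0.018 to 0.0183). Esam, for example, measured 88.7, 347, 92.2 and 16.3 CPM in WT against 0.253, 0.647, 2.97 and 4.19 CPM in Yap-cKO, with no overlap. Eng differed least of these, with 42.5 to 284 CPM in WT against 5.31 to 18.4 CPM in Yap-cKO. Pecam1 overlapped, at 61.6 to 469 CPM in WT against 65.6 to 93.0 CPM in Yap-cKO (log2 difference -1.25 ± 0.55, edgeR adjusted p = 0.138).

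Without Yap-cKO CD8+ TIL replicate 2 no gene of the 10 was called, and 1 of 13927 genes was called in all; 9 of the 10 still had an unadjusted p under 0.05. With any other library left out, 7 or 8 were called, replicate 2 of WT included, and 322 to 2582 genes were called in all. WT replicate 4 alone lay above all 4 Yap-cKO libraries for 8 of 10 genes, a rule for which the share of all genes was not computed.

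**Figure D2:**
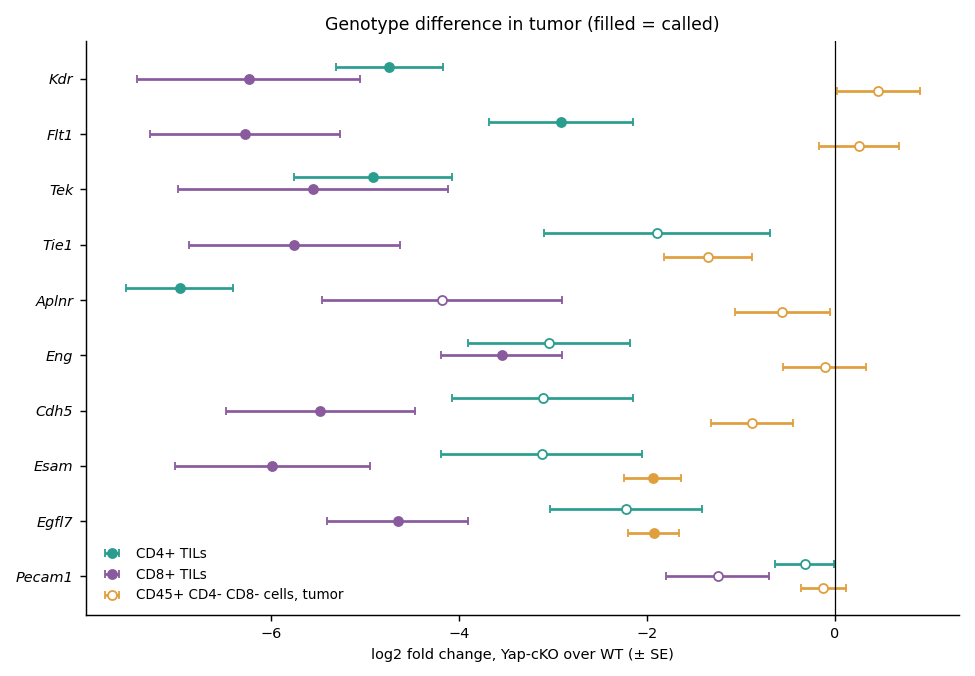
Log2 fold change between Yap-cKO and WT in tumor (x axis, negative where Yap-cKO was lower) for each of the 10 genes, with the standard error of the edgeR fit; filled points were called, open points were not. Kdr lies at -4.74 in CD4+ TILs, at -6.24 in CD8+ TILs and at 0.46 in CD45+ CD4- CD8- cells, and Tek was not tested in the latter.

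In the CD45+ CD4- CD8- cells of the tumor the 9 genes without Pecam1 summed to 45.3, 117, 62.8 and 109 CPM in WT. In Yap-cKO they summed to 105, 58.1, 68.0 and 51.9 CPM, which overlapped the WT values. Of the 9 that passed the filter, Esam and Egfl7 were called lower in Yap-cKO, where 0.925% of 13628 genes were called lower, and 0 were called higher, where 0.0660% were. Both were also the genes whose groups did not overlap, as for 9.88% of all genes in that direction. The median log2 difference of the 9 was -0.56, beside 0.0147 over all genes tested.

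Esam stood at 7.96, 9.55, 6.38 and 5.66 CPM in WT against 1.42, 1.13, 2.37 and 2.58 CPM in Yap-cKO CD45+ CD4- CD8- cells, a difference of -1.94 ± 0.30 (edgeR adjusted p = 0.0249). Egfl7 stood at 7.49, 9.13, 4.67 and 7.05 CPM in WT against 1.51, 1.66, 1.55 and 2.42 CPM in Yap-cKO, a difference of -1.93 ± 0.27 (edgeR adjusted p = 0.0185). Both genes were thus lower in each Yap-cKO library than in each WT library, by a similar factor.

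The VEGF receptors were not called in this gate. Kdr measured 4.89, 27.9, 12.9 and 22.8 CPM in WT against 33.7, 15.7, 21.4 and 18.2 CPM in Yap-cKO (log2 difference 0.46 ± 0.44, edgeR adjusted p = 0.593). Flt1 measured 13.3, 20.0, 9.77 and 28.9 CPM in WT against 38.2, 13.8, 17.98 and 11.02 CPM in Yap-cKO (log2 difference 0.26 ± 0.43, edgeR adjusted p = 0.773). Both overlapped, and for each the highest of the 8 libraries was Yap-cKO replicate 1.

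The other genes tested in this gate lay between these. Tie1 and Cdh5 gave -1.35 ± 0.47 and -0.88 ± 0.43, Aplnr -0.56 ± 0.50, Pecam1 -0.12 ± 0.24 and Eng -0.11 ± 0.45, with edgeR adjusted p of 0.184 to 0.916. WT replicate 4 alone lay above all 4 Yap-cKO libraries for 6 of 10 genes, a rule for which the share of all genes was not computed. The 2 calls did not hold when 1 library was left out: 0 were called without WT replicate 1, 2 or 4 or without Yap-cKO replicate 2 or 3, and 1 without WT replicate 3 or Yap-cKO replicate 1. Esam and Egfl7 kept differences of -2.14 to -1.75 and -2.11 to -1.80 through these. Over all genes 1 to 117 were called with 1 library left out, against 135 with all libraries. Eng, Aplnr, Pecam1 and Flt1 changed sign when 1 library was left out, so no direction is given for them.

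Ratios within a library do not depend on depth. The count of Kdr over that of Egfl7 was 0.653, 3.05, 2.77 and 3.23 in the WT CD45+ CD4- CD8- tumor libraries and 22.2, 9.44, 13.8 and 7.53 in the Yap-cKO libraries. No library of the other genotype fell in either range. Flt1 over Egfl7 likewise ran from 1.78 to 4.10 in WT and from 4.55 to 25.2 in Yap-cKO, and Eng over Egfl7 ran from 0.625 to 4.23 in WT and from 4.04 to 14.1 in Yap-cKO, with medians of 3.13 and 11.1 and a slight overlap. Esam over Egfl7 had medians of 1.05 and 1.00. In the CD4+ TILs the Kdr ratio went the other way, with 0.814 to 1.48 in WT and 0.108 to 0.551 in Yap-cKO, the latter on as few as 14 counts of Kdr and 27 of Egfl7. In the CD8+ TILs it overlapped, at 0.722 to 2.89 in WT and 0.179 to 1.56 in Yap-cKO. These ratios were chosen after the values were seen and carry no test of their own.

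**Figure D3:**
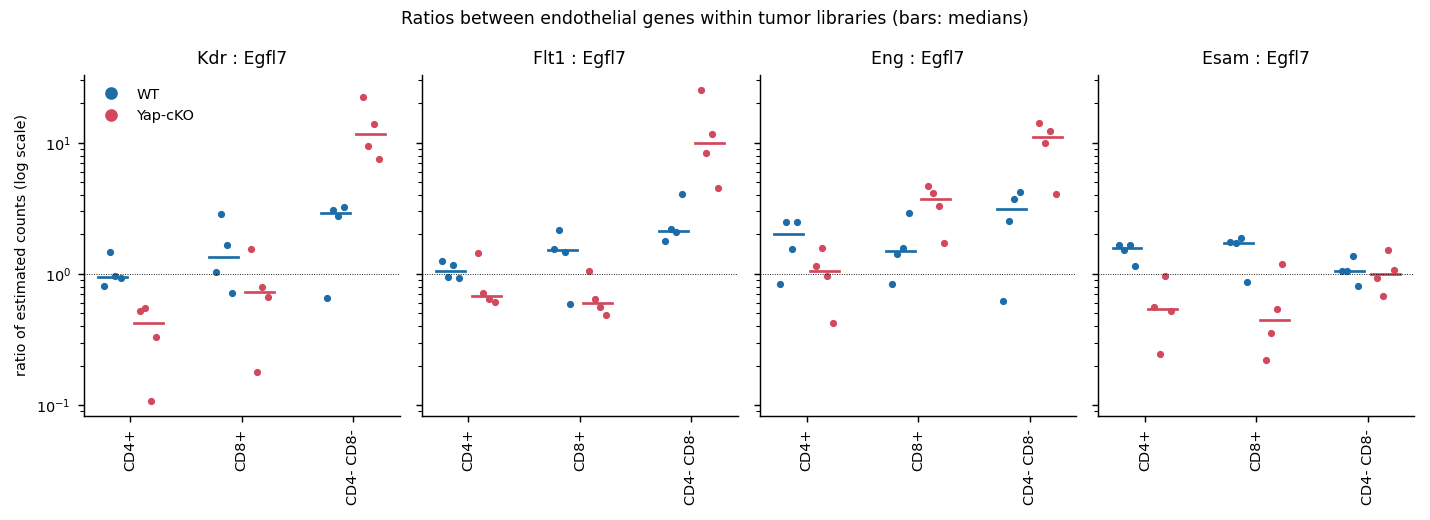
Ratio of the estimated counts of Kdr, Flt1, Eng and Esam to those of Egfl7 within each tumor library (y axis, log scale) for the 3 gates; points are libraries (blue WT, red Yap-cKO) and bars medians. In the CD45+ CD4- CD8- gate the median of Kdr over Egfl7 was 2.91 in WT and 11.6 in Yap-cKO, and that of Esam over Egfl7 was 1.05 and 1.00.

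Whether the genotype difference itself differed between the gates of the tumor was tested as an interaction, in which the CD45+ CD4- CD8- difference was set against the mean of both TIL differences. It was called for Kdr (5.95 ± 1.03, edgeR adjusted p = 0.00821), Flt1 (4.85 ± 1.01, edgeR adjusted p = 0.0162) and Aplnr (5.01 ± 1.18, edgeR adjusted p = 0.0315), each higher, where 1.76% of 15839 genes were called higher. Not called were Esam at 2.61 ± 1.15 and Egfl7 at 1.501 ± 0.878 (edgeR adjusted p = 0.258 and 0.408). CD4+ and CD8+ TILs had been sorted from each tumor, so libraries of different gates may share a tumor, and this fit did not pair them. The count of 3 became 8 without Yap-cKO CD4+ TIL replicate 3 and 1 without WT CD45+ CD4- CD8- replicate 1 or 3, and with 1 of the other libraries left out it was 2 to 4.

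Within a genotype the gates also differed, again in fits that did not pair them. In WT tumors 6 genes were called lower in CD45+ CD4- CD8- cells than in the mean of the TIL gates, where 18.6% of 14942 genes were called lower: Esam (-3.13), Tie1 (-2.87), Tek (-2.72), Aplnr (-2.53), Egfl7 (-2.49) and Eng (-1.74). In Yap-cKO tumors 3 of 9 tested genes were called higher in that gate, Kdr (4.11), Flt1 (3.22) and Aplnr (2.47), where 17.0% of 14634 genes were called higher. The edgeR adjusted p of these calls was at most 0.0388 in WT and at most 0.023 in Yap-cKO. In Yap-cKO Aplnr reached 10 counts in every library of the CD45+ CD4- CD8- gate alone. In WT Tek did so in the TIL gates alone. The direction of these 2 calls was thus in part built into being tested. With 1 library left out the counts were 3 to 10 in WT, 10 without WT CD8+ TIL replicate 4 and 3 without WT CD45+ CD4- CD8- replicate 1 or 3. They were 2 to 6 in Yap-cKO, 6 without Yap-cKO CD4+ TIL replicate 3, 5 without Yap-cKO CD8+ TIL replicate 3 and 2 without Yap-cKO CD45+ CD4- CD8- replicate 1 or 2.

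In the TDLNs no genotype difference was called for any of these genes. The filter left 4 of the 10 to test in CD4+ cells, 4 in CD8+ cells and 6 in CD45+ CD4- CD8- cells, where 0.0462%, 0.0158% and 0.0596% of all genes were called in either direction and 228, 120 and 391 had an unadjusted p under 0.05. Among the genes tested, Eng in the CD45+ CD4- CD8- gate had the lowest unadjusted p, 0.0154, at a log2 difference of -1.77 ± 0.61 (edgeR adjusted p = 0.998). It was the only one of the genes tested in these 3 comparisons with an unadjusted p under 0.05, and DESeq2 called 0 of them as well. The genes that did not pass the filter were too low for a difference to be detectable at this depth.

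Eng and Pecam1 were the exceptions to the low level in TDLNs. Eng stood at 22.3, 26.7, 23.7 and 25.2 CPM in WT CD8+ TDLN cells and at 40.1, 28.8, 29.0 and 28.5 CPM in the Yap-cKO ones. In CD4+ TDLN cells it was at 0.893, 0.504, 0.324 and 1.95 CPM in WT against 1.83, 1.68, 1.46 and 0.756 CPM in Yap-cKO. The CD8+ mean was 26.7 times the CD4+ mean in WT and 22.1 times in Yap-cKO, with no overlap (exact permutation p = 0.02857 each, two-sided, n = 4 per group, the smallest p that 4 against 4 can give). Eng in WT CD8+ TDLN cells was also 11.9 times the mean of the CD45+ CD4- CD8- gate (exact permutation p = 0.02857). Apart from Pecam1 the other genes were low in the same libraries, Kdr for example at 0 to 0.312 CPM in WT CD8+ TDLN cells.

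Although every Yap-cKO CD8+ TDLN library lay above every WT one for Eng, as 0.514% of the 12651 genes tested did, the log2 difference of 0.33 ± 0.22 was not called (edgeR adjusted p = 0.999). Fpgs, which overlaps Eng on the other strand, averaged 30.0 CPM in WT CD8+ and 21.8 CPM in WT CD4+ TDLN cells.

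Pecam1 was higher in CD4+ than in CD8+ TDLN cells, 177 ± 25 against 99.3 ± 23.9 CPM in WT and 188 ± 21 against 117 ± 22 CPM in Yap-cKO (SD, n = 4). In WT CD45+ CD4- CD8- cells it averaged 238 ± 85 CPM in the TDLN and 57.1 ± 21.2 CPM in the tumor. Each of these 3 contrasts gave an exact permutation p of 0.02857. In all 6 such tests were run on Eng and Pecam1, chosen after their levels were seen, and each was 0.02857 after Benjamini-Hochberg adjustment as well.

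Tumor and TDLN were compared within each gate and genotype. In WT CD4+ cells 9 of 10 genes were called higher in tumor, where 22.9% of 14009 genes were, and in WT CD8+ cells likewise 9 of 10, where 22.5% of 13894 genes were; the exception in both was Pecam1. Aplnr, at 0 in all WT TDLN T-cell libraries, was at least 160.4-fold higher in WT CD4+ TILs and at least 271.9-fold higher in WT CD8+ TILs, taken against 3 counts per library. Tek was at least 20.2-fold higher in WT CD4+ TILs on the same basis. The filter kept 8 genes in CD4+ and 7 in CD8+ cells through the tumor libraries alone, so that these had to be higher there. With 1 of the tumor libraries left out it kept 4 of the 10, and 3 were called in CD4+ cells and 2 or 3 in CD8+ cells, 2 without WT CD8+ TIL replicate 2.

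In Yap-cKO fewer genes passed the filter and fewer were called. In CD4+ cells 3 of the 6 genes tested were called higher in tumor, Esam (6.09), Egfl7 (3.62) and Kdr (2.42), where 12.4% of 13565 genes were (edgeR adjusted p = 0.0122 to 0.033). In CD8+ cells Egfl7 was called higher (2.16 ± 0.65), where 10.9% of 13347 genes were, and Eng was called lower (-1.96 ± 0.40), where 5.01% were (edgeR adjusted p = 0.0391 and 0.00666). Eng thus stood at 5.31 to 18.4 CPM in Yap-cKO CD8+ TILs and at 28.5 to 40.1 CPM in their TDLN counterparts, while in WT it was higher in tumor (1.89 ± 0.51, edgeR adjusted p = 0.0103). The filter kept Esam, Egfl7 and Kdr in Yap-cKO CD4+ cells and Egfl7 in Yap-cKO CD8+ cells through the tumor libraries alone. The direction of these calls was thus in part built into being tested. The 3 calls in CD4+ cells were 1 to 4 with 1 library left out. They were 1 without Yap-cKO CD4+ TIL replicate 2 or 3 or Yap-cKO CD4+ TDLN replicate 2 or 3, and the 2 in CD8+ cells were 1 or 2.

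The test of this difference between genotypes called Kdr in CD4+ cells (-5.12 ± 0.97, edgeR adjusted p = 0.021), where 1.15% of 15087 genes were called in that direction. In CD8+ cells it called Flt1 (-6.49 ± 1.11, edgeR adjusted p = 0.0297), Eng (-3.90 ± 0.71, edgeR adjusted p = 0.0368) and Egfl7 (-4.51 ± 0.95, edgeR adjusted p = 0.0456), where 0.422% of 14937 genes were called. For Aplnr and Tek, at 0 in nearly every TDLN T-cell library, this term could not be estimated. The CD4+ count became 7 without Yap-cKO CD4+ TIL replicate 3 and 0 without WT CD4+ TDLN replicate 2. The CD8+ count became 6 without WT CD8+ TIL replicate 3 or 4 or Yap-cKO CD8+ TIL replicate 3, was 1 or 2 without WT CD8+ TIL replicate 1 or 2 or Yap-cKO CD8+ TDLN replicate 1 or 2, and was 0 without any other library of that fit.

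The same 8 genes were called higher in tumor in the CD45+ CD4- CD8- cells of both genotypes. In WT 8 of 9 genes were called higher in tumor, where 21.9% of 13898 genes were, and Pecam1 was called lower (-1.94 ± 0.32, edgeR adjusted p = 0.000753), where 18.0% were. In Yap-cKO 8 of 9 were called higher, where 21.8% of 13734 genes were, and Pecam1 lower (-1.98 ± 0.18, edgeR adjusted p = 4.45e-06), where 18.5% were. Egfl7 was among the largest in both, at 4.76 ± 0.48 and 4.38 ± 0.50, and Eng ran from 3.30 ± 0.65 in WT to 4.99 ± 0.43 in Yap-cKO. In WT the filter kept Esam, Tie1, Aplnr and Egfl7 through the tumor libraries alone. In Yap-cKO it kept Esam, Aplnr, Egfl7, Cdh5, Kdr and Eng in this way. The direction of these calls was thus in part built into being tested. Egfl7 had 3 to 11 counts per WT TDLN library and 1 to 3 per Yap-cKO TDLN library in this gate. The test of the difference between genotypes called 0 of 14871 genes in this gate with edgeR, while 1246 had an unadjusted p under 0.05 and DESeq2 called 119, with 0 of the endothelial genes among them.

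Across libraries of the WT TILs all pairs of the 10 genes were positively correlated. Over the 8 WT TIL libraries the 45 pairs of genes had a median Pearson r of 0.90 (0.68 to 0.99) on log2 CPM and a median Spearman rho of 0.714. Over the 8 Yap-cKO TIL libraries the median r was 0.44 (-0.58 to 0.96), and Pecam1 was negative with all 9 others. With group means removed, the median r was 0.75 over the 16 TIL libraries, 0.37 over the 8 CD45+ CD4- CD8- tumor libraries and -0.01 over the 24 TDLN libraries. Libraries share depth and sort between genes, and many values in Yap-cKO and TDLN libraries rest on few counts, so these figures carry no test.

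Against the mean of the other 9 over all 48 libraries, r was 0.90 to 0.96 for 8 of the genes, 0.70 for Eng and -0.11 for Pecam1. With group means removed, this r was 0.74 to 0.90 for the same 8 genes, 0.67 for Eng and 0.59 for Pecam1. Pecam1 also had substantial levels in the CD4+ and CD8+ cells of the TDLN, and Eng had them in the CD8+ cells alone. Of 16859 genes, the 10 outside the list whose log2 level ran most closely with the mean of the 10 were Adgrf5 (r = 0.978), Flt4 (0.977), Plvap (0.974), Cd34 (0.973), Robo4 (0.973), Grb10 (0.973), Vwa1 (0.972), Pxdn (0.972), Sox18 (0.971) and Adgrl4 (0.970). Within groups their r was 0.84 to 0.96. Plvap, the diaphragm protein of fenestrated vessels, averaged 133 CPM in WT against 11.7 CPM in Yap-cKO CD4+ TILs, and Sox18, an endothelial transcription factor, 15.9 and 1.67 CPM.

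Some pericyte, fibroblast and melanoma genes were called lower in the Yap-cKO TILs as well. Of 8 pericyte genes 5 were called lower in Yap-cKO CD4+ and 7 in CD8+ TILs, of 8 fibroblast genes (5 tested) 4 in both, and of 7 melanoma genes 4 and 2, while 0 of these were called higher, beside the 6.66% and 9.14% of all genes called lower. Of the pericyte genes 6 in CD4+ and 7 in CD8+ TILs, and of the fibroblast genes 2 and 3, passed the filter through 1 group alone, so that their difference was built into being tested. Summed, the pericyte genes were at 83.8 to 289 CPM in WT against 4.28 to 40.1 CPM in Yap-cKO CD4+ TILs, and the fibroblast genes at 110 to 531 and 8.71 to 46.0 CPM. The melanoma gene Dct averaged 3793 CPM in WT against 338 CPM in Yap-cKO CD4+ TILs, and all 7 melanoma genes had each WT library above each Yap-cKO library in both TIL gates. None of the pericyte, fibroblast or melanoma genes was at 0 in a whole TIL group.

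The T lineage genes went the other way without being called, at 2438 to 9373 CPM in WT CD4+ TILs and 9638 CPM or more in Yap-cKO, with a median log2 difference of 0.94 over 15 genes. Myeloid genes did not have 1 direction in the TILs. They summed to 268 to 679 CPM in WT against 109 to 388 CPM in Yap-cKO CD4+ TILs, where edgeR called 0 of 6, and 0 of 6 passed 0.05 before adjustment. In CD8+ TILs they summed to 275 to 728 CPM in WT against 546 to 1740 CPM in Yap-cKO, and Cd68, Itgam and Adgre1, named after their values were seen, were called higher, where 3.03% of all genes were. The median log2 difference of the 6 myeloid genes was -0.87 in CD4+ and 1.42 in CD8+ TILs. WT CD8+ TIL replicate 2, the highest for all 10 endothelial genes, was also the highest of its group for pericyte genes (571 CPM) and fibroblast genes (756 CPM). The part of these other cells in the result was not tested.

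Markers of other vessel types were low. The lymphatic endothelial genes summed to 4.71 to 10.1 CPM in WT CD4+ TILs and 3.02 to 6.95 CPM in Yap-cKO ones, and to 8.96 to 28.3 CPM in WT and 17.2 to 25.0 CPM in Yap-cKO CD45+ CD4- CD8- tumor cells, mostly Pdpn. In CD8+ TILs they summed to 6.50 to 9.17 CPM in WT and to 2.09 to 31.9 CPM in Yap-cKO, of which Lyve1 averaged 13.2 CPM. Of the 3 tested there, Prox1, the lymphatic transcription factor, named after its value was seen, was called lower (-4.73 ± 0.79, edgeR adjusted p = 0.018). Those of high endothelial venules, the vessels by which lymphocytes enter lymph nodes, stayed at 0 to 1.52 CPM in the tumor libraries and at 0 to 0.97 CPM in the TDLN libraries. Chst4 was at 0 in all 6 tumor groups. Platelets also express Pecam1 and Esam. Platelet genes were at 14.5 to 93.3 CPM in WT against 4.03 to 73.8 CPM in Yap-cKO CD4+ TILs and at 20.1 to 77.7 and 26.5 to 163 CPM in CD8+ TILs, with 0 of 4 and 0 of 5 tested genes called by edgeR and 1 in each gate at an unadjusted p under 0.05. Yap-cKO CD4+ TIL replicate 3 held the highest platelet, pericyte and fibroblast sums of its group.

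In the CD45+ CD4- CD8- tumor cells Esam and Egfl7 were called and Kdr and Flt1 were not. Of 7 melanoma genes 4 were called lower in Yap-cKO there as well, and of 7 tested pericyte genes 1, Des, was called. These counts stand beside the 0.925% of 13628 genes called lower. Des passed the filter through the WT group alone, so that its direction was in part built into being tested. The pericyte sum was 16.2 to 24.2 CPM in WT against 6.21 to 12.4 CPM in Yap-cKO, and the fibroblast sums overlapped at 15.5 to 28.0 and 7.48 to 36.5 CPM. Platelet genes stood at 155 to 746 CPM in WT against 95.8 to 280 CPM in Yap-cKO. The part of these cells was not tested.

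**Figure D4:**
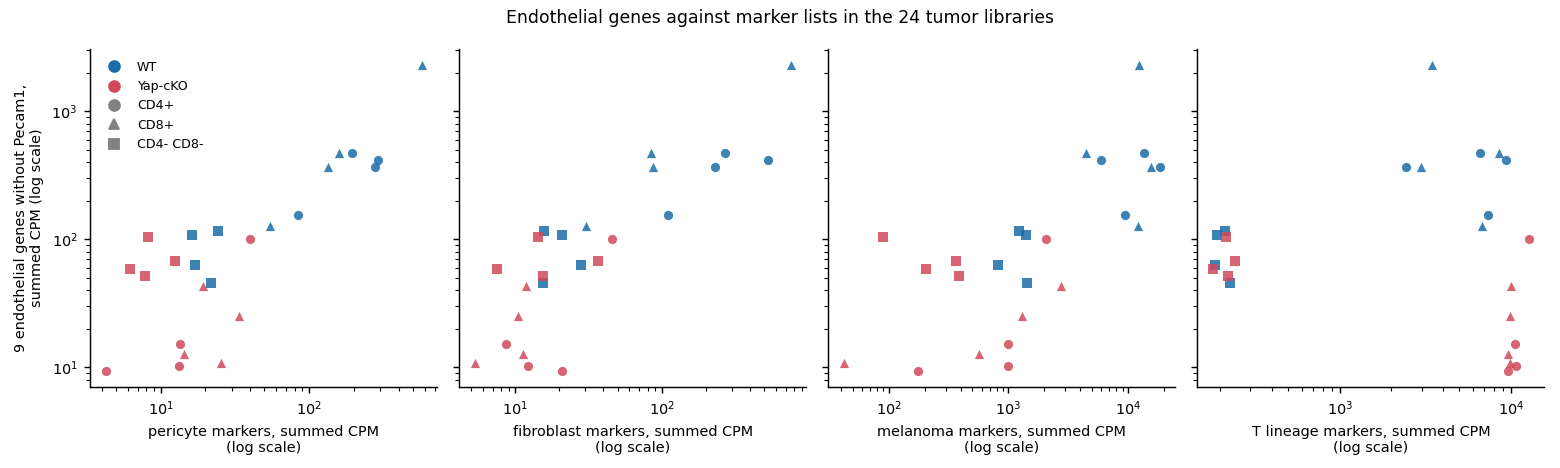
Summed CPM of the 9 endothelial genes without Pecam1 (y axis, log scale) against the summed CPM of pericyte, fibroblast, melanoma and T lineage genes (x axes, log scale) in the 24 tumor libraries; color gives the genotype and the marker shape the gate. The 8 WT TIL libraries, at 128 to 2321 CPM of endothelial genes, lie to the upper right for pericyte genes, and the 8 Yap-cKO TIL libraries, at 9.31 to 101 CPM, to the lower left. For fibroblast genes they lie likewise, except that WT CD8+ TIL replicate 4 (30.3 CPM) is left of Yap-cKO CD4+ TIL replicate 3 (46.0 CPM).

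A further 46 genes in 5 lists covered the wider endothelial program and its ligands. Some of them, such as Vegfa and Notch1, are not particular to endothelial cells. In CD4+ TILs 8 of 16 tested surface and junction genes were called lower in Yap-cKO, as were 3 of 6 transcription factors, 3 of 7 genes of VEGF ligands and other VEGF receptors, 1 of 4 genes of the angiopoietin, apelin and BMP9 systems and 0 of 5 Notch genes by edgeR, of which Dll4 and Notch4 had an unadjusted p under 0.05. In CD8+ TILs the counts were 13 of 15, 4 of 5, 6 of 7, 3 of 4 and 2 of 5. In neither gate was a gene of these lists called higher. These counts stand beside the 6.66% and 9.14% of all genes called lower. In CD4+ TILs 8 of the 16 surface and junction genes and 5 of the 6 transcription factors passed the filter through 1 group alone, and in CD8+ TILs 8 of 15 and 5 of 5, so that their difference was built into being tested. The same held for 3 of the 7 VEGF genes in each gate, for 2 of the 4 genes of the angiopoietin, apelin and BMP9 systems in CD8+ TILs, and for 1 and 3 of the Notch genes.

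Among the ligands, Vegfa, the main ligand of Kdr, averaged 85 ± 26.3 CPM in WT against 16.7 CPM in Yap-cKO CD4+ TILs (log2 difference -2.17 ± 0.37, edgeR adjusted p = 0.00895), and Vegfc, the ligand of Flt4, fell by 2.32 ± 0.51. Angpt2, an angiopoietin that endothelial cells release onto Tek, averaged 78.6 ± 32.1 CPM in WT against 4.48 CPM in Yap-cKO (-3.86 ± 0.68, edgeR adjusted p = 0.0105). In the CD45+ CD4- CD8- tumor cells Angpt2 was called lower too (-2.73 ± 0.35, edgeR adjusted p = 0.0129). Vegfa there had a difference of 1.23 ± 0.30 that was not called (edgeR adjusted p = 0.0768), with means of 107 CPM in WT against 245 CPM in Yap-cKO.

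Among the surface genes Emcn, a sialomucin of veins and capillaries, fell by 4.68 ± 0.76 in CD4+ TILs, Clec14a by 3.75 ± 0.85, Ptprb, the phosphatase that acts on Tek, by 3.71 ± 0.56 and Mcam, also a melanoma adhesion molecule, by 3.43 ± 0.81 (edgeR adjusted p = 0.00695 to 0.0274). The transcription factors Erg, an ETS factor, Sox7 and Gata2 fell by 5.32, 4.49 and 3.38 (edgeR adjusted p = 0.00763 to 0.0188), Erg from a low level of 0.651 to 1.54 CPM in WT. Of the Notch genes, Notch1, which T cells express, measured 65.6 CPM in WT against 98.6 CPM in Yap-cKO (0.77 ± 0.52, edgeR adjusted p = 0.378). Dll4, a ligand of tip cells in sprouting vessels, measured 21.0 and 1.94 CPM (-3.11 ± 1.09, edgeR adjusted p = 0.109) and was called in CD8+ TILs (-5.72 ± 1.34, edgeR adjusted p = 0.0258).

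Angpt2 was the 1 gene of the 5 lists called in the CD45+ CD4- CD8- tumor cells. In WT tumors against TDLNs, 14 of 15 surface and junction genes were called higher in CD4+ and in CD8+ cells, as were 5 of 6 and 4 of 5 transcription factors, where 22.9% and 22.5% of all genes were. Of the surface and junction genes 13 and 11, and of the transcription factors 5 and 4, passed the filter through 1 tissue alone.

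Below the level of genes, the transcripts of Flt1 and Egfl7 were read from the per-transcript estimates. Flt1-206, which the annotation gives as an intron-retaining transcript, took 1.18, 0.79, 1.04 and 4.23% of the Flt1 counts in WT CD4+ TILs and 43.3, 59.9, 0 and 61.1% in Yap-cKO ones. In CD8+ TILs it took 0.33 to 5.19% in WT and 57.8, 76.7, 13.2 and 59.5% in Yap-cKO. The lowest shares in Yap-cKO were those of replicate 3 in both gates, the library with the most Flt1.

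The same transcript held 65.2 to 100% of Flt1 in WT CD4+ and 72.5 to 94.5% in WT CD8+ TDLN cells, where Flt1 stood near 1 CPM, and 1.46 to 5.24% in the CD45+ CD4- CD8- tumor cells of either genotype. The share differed between genotypes in CD8+ TILs with an exact permutation p of 0.02857 (0.08571 after adjustment over 6 tests of transcript shares) and in CD4+ TILs with 0.1429 (0.2143). In CD45+ CD4- CD8- cells its means were 3.39% and 3.46% (exact permutation p = 1). The Yap-cKO TIL shares rest on 17.5 to 242 Flt1 counts per library, those of the CD45+ CD4- CD8- tumor cells on 214 to 833, and the assignment between overlapping transcripts is itself an estimate.

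Most Egfl7 counts of the tumor groups lay on transcripts from 3 starts, and the 250 bases before the RefSeq starts are given beside the share of each. They lie at chr2:26580833-26581082, chr2:26583615-26583864 and chr2:26586386-26586635, all on the plus strand, with capitals as above.
Egfl7, start 1: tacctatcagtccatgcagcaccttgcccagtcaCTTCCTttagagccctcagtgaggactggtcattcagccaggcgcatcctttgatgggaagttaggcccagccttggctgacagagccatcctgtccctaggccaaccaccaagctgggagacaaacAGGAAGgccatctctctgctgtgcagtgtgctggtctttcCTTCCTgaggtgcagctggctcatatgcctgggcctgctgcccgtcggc
Egfl7, start 2: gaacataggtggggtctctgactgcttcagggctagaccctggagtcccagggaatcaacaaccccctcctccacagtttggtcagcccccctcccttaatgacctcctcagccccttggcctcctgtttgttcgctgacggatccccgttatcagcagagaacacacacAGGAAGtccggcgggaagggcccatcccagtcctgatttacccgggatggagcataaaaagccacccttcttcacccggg
Egfl7, start 3: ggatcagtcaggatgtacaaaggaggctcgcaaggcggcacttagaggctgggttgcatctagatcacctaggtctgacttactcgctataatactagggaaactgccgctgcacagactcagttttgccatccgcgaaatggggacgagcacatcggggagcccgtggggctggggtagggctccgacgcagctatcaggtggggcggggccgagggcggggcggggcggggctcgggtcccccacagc
The window of start 1 held AGGAAG or CTTCCT at 3 places, that of start 2 at 1 place and that of start 3 at none, and their GC content was 58.0, 58.4 and 63.2%. Transcripts from start 3 took 24.2, 12.2, 10.4 and 31.1% of the Egfl7 counts in WT CD4+ TILs and 55.6, 61.8, 45.4 and 38.7% in Yap-cKO ones. The groups did not overlap (means 19.5 ± 9.8 and 50.4 ± 10.3%, SD, n = 4, exact permutation p = 0.02857, 0.08571 after adjustment).

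In CD8+ TILs start 3 took 14.9, 5.09, 7.35 and 43.7% in WT and 100, 79.1, 65.6 and 22.6% in Yap-cKO (exact permutation p = 0.05714, adjusted 0.1143), and in CD45+ CD4- CD8- tumor cells a mean of 31.2 and 50.9% (p = 0.2, adjusted 0.24, exact permutation). The Yap-cKO tumor libraries held 18 to 378 Egfl7 counts each. The mean share of start 2 was 35.8% in WT against 9.0% in Yap-cKO CD4+ TILs, and start 1 took 34.3% and 27.2%. None of the 6 tests of transcript shares passed 0.05 after adjustment.

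**Figure D5:**
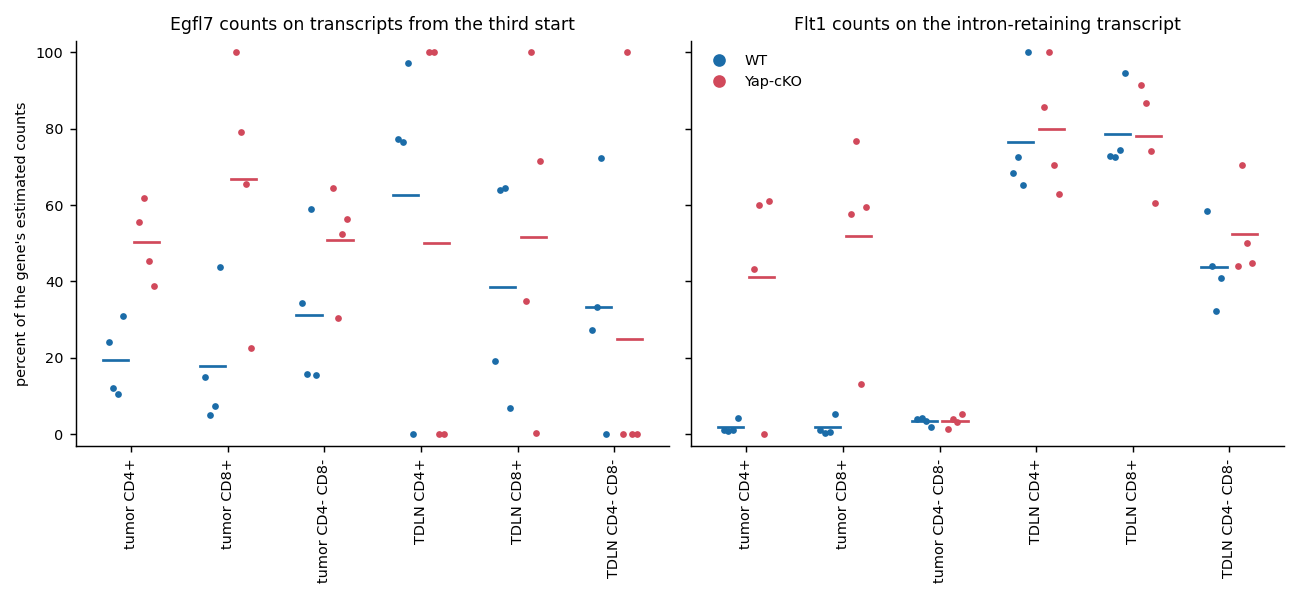
Percent of each library's Egfl7 counts on transcripts from the third start (left) and of its Flt1 counts on the intron-retaining transcript Flt1-206 (right), for the 3 gates in tumor and TDLN; points are libraries (blue WT, red Yap-cKO) and bars means. Flt1-206 held 1.81% on average in WT and 41.1% in Yap-cKO CD4+ TILs, and 3.39% and 3.46% in the CD45+ CD4- CD8- tumor cells.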

How the data were processed

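Total RNA of 48 sorted-cell libraries was amplified with SMART-Seq v4, which does not mark the strand, and sequenced as paired 75-base reads. Per the submitters' processing notes the authors used FastQC, Trimmomatic and Salmon 0.9.1 with mm10; the deposited values are estimated counts and TPM (a length-scaled abundance) for each of 112092 transcripts, made by the authors and not pooled over replicates. Of these transcripts 111787 were matched to GENCODE M21 and summed to 34932 genes, and the sums were rounded. Unmatched transcripts held 0.0488 to 0.1799% of the counts. TPM was used to compare levels between genes and CPM, computed from the sums, within a gene. No pair of the 72 replicate pairs was identical.

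Groups were taken from the labels. Comparisons were fitted across all genes with edgeR 4.0.16 in R 4.3.3 (quasi-likelihood test, TMM scaling, genes kept with 10 or more counts in 4 or more fitted libraries, Benjamini-Hochberg adjustment). A call needed an adjusted p below 0.05 together with a log2 difference over 1. The alternatives were DESeq2 1.42.0, no filter on low counts, a replicate block, scaling on T lineage genes and leaving out each library, and the test script was tested on simulated data. A fold against a group at 0 was taken against 3 counts per library. The log2 levels used CPM plus 0.5 for correlations between pairs of the 10 genes and CPM plus 1 for those with a mean of genes. Single values were compared by exact permutation tests. Depth sets the precision of low values, and intervals for counting error were not computed.

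All 10 genes are named in every comparison. Of each pathway or marker list up to 4 genes were named, those with the largest absolute log2 difference by genotype in CD4+ TILs among those called there, or the 2 with the highest mean CPM where none was called. The 10 genes outside the list with the highest Pearson correlation over the 48 libraries with the mean log2 level of the 10 genes were also named, among genes that reached 10 counts in 4 or more libraries. The genes and lists were chosen with earlier results of these data known, and the added alternatives after seeing the data.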

Additional observations from a re-analysis of the deposited data

Results flagged for a closer look

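Among 113 groups of 4 libraries examined, 1 for each gene and group with counts, 17 held a library far from the other 3 by Dixon's criterion at 95%. Chance marks about 1 in 20 for independent values with a normal spread. The genes here share libraries, so that rate does not apply to these groups. A group with 1 library above 0 is marked whatever the value, as for Tek in the TDLN groups named below. Yap-cKO CD4+ TIL replicate 3 stood high for Esam (20.42 CPM), Flt1 (13.65 CPM), Tie1 (17.83 CPM) and Egfl7 (21.33 CPM). WT CD8+ TIL replicate 2 stood high for Kdr (578.9 CPM), Flt1 (437.1 CPM), Tek (61.66 CPM) and Eng (283.9 CPM). WT CD4+ TIL replicate 4 stood low for Esam (22.47 CPM) and Egfl7 (19.47 CPM). In the CD45+ CD4- CD8- tumor cells WT replicate 2 stood high for Tek (2.113 CPM) and Yap-cKO replicate 4 for Egfl7 (2.42 CPM). In TDLNs Yap-cKO CD8+ replicate 1 stood high for Eng (40.14 CPM) and Yap-cKO CD45+ CD4- CD8- replicate 1 for Kdr (4.639 CPM). The remaining high values were low in level: Egfl7 in WT CD45+ CD4- CD8- TDLN replicate 1 (0.5291 CPM), Tek in WT CD8+ TDLN replicate 4 (0.06247 CPM) and Tek in Yap-cKO CD45+ CD4- CD8- TDLN replicate 2 (0.0508 CPM).

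The difference between tumor and TDLN itself differed between genotypes, by the interaction term of edgeR, for Kdr in CD4+ cells (-5.12 on the log2 scale) and for Flt1 (-6.49), Eng (-3.90) and Egfl7 (-4.51) in CD8+ cells. The genotype difference of the CD45+ CD4- CD8- tumor cells differed from the mean of the TIL gates for Kdr (5.95), Flt1 (4.85) and Aplnr (5.01).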

How the results depend on the processing

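No called gene changed sign in 837 values under the alternatives run; of 71 called values DESeq2 kept 66, no filter on low counts 71 and the replicate block 55, and scaling on T lineage genes kept 12 of 12. Of 1209 values of genes not called 38 changed sign, 34 of them on leaving out a library, and 1 ended in a call. By genotype, the 4 genes called in CD4+ TILs became 8 without the filter and 9 under T lineage scaling, and 6 with DESeq2. The 3 of the population interaction became 5 with DESeq2, and the 3 in Yap-cKO TIL gates against CD45+ CD4- CD8- cells 5. The interaction of tissue and genotype went from 1 to 4 in CD4+ cells with DESeq2 and 3 without the filter, and from 3 to 7 in CD8+ cells with either. Tumor against TDLN in Yap-cKO gave 7 in CD4+ and 6 in CD8+ cells without the filter. With the replicate block the counts were 9 (CD4+ genotype), 0 (CD8+ genotype), 0 (CD45+ CD4- CD8- genotype), 1 and 1 (tissue in Yap-cKO CD4+ and CD8+), 0 (tissue interaction, CD8+) and 5 (gates in Yap-cKO), and Eng in the CD45+ CD4- CD8- gate turned from -0.11 to 0.037. The labels give these numbers without saying what they share. In no comparison did all 4 same-numbered pairs correlate above 0.1 (for example -0.285, -0.363, 0.221 and 0.265 for CD4+ TILs), so the numbers were not taken to pair libraries. With WT replicate 4 as the sole WT library, 6 genes against 2 did not overlap in the CD45+ CD4- CD8- tumor cells, and the Spearman rho of 0.714 among WT TIL libraries stood below the Pearson r of 0.90. The rule of no overlap is met more easily by 1 WT library than by 4, and for 1 the share of all genes was not computed. Leaving out 1 library gave 1 to 9, 0 to 8 and 0 to 2 calls by genotype in CD4+, CD8+ and CD45+ CD4- CD8- tumor cells and 0 in each TDLN comparison. By tissue it gave 3 to 9, 2 to 9 and 8 to 9 in WT and 1 to 4, 1 to 2 and 7 to 9 in Yap-cKO, with interactions of 0 to 7, 0 to 6 and 0. Between gates it gave 3 to 10 in WT, 2 to 6 in Yap-cKO and 1 to 8 for the interaction. 4 genes changed sign by genotype in the CD45+ CD4- CD8- tumor cells, Pecam1 (-0.29 to 0.058), Flt1 (-0.32 to 0.59), Aplnr (-0.83 to 0.076) and Eng (-0.43 to 0.21, with 0.075 without Yap-cKO replicate 4). Over all genes, the genotype calls were 1139, 2128 with DESeq2, 1723 without the filter, 767 with the block and 3430 under T lineage scaling in CD4+ TILs. They were 1719, 2572, 2103, 1 and 5574 in CD8+ TILs, and 135, 527, 250 and 1 in the CD45+ CD4- CD8- tumor cells without that scaling, which moved the median of all genes to -1.09 and -1.08 in the TILs. The cause of these changes was not tested. Tek and Aplnr in TDLN T cells lay below 3 counts, where depth sets the limit.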
